A study of Homo sapiens with 15 samples.

Results

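Gene expression was compared between U2OS cells held in a double thymidine block and U2OS cells growing asynchronously, both with the vehicle DMSO and without Nutlin. U2OS is a human osteosarcoma line that carries wild-type p53. The comparison used 5 of the 15 libraries of the series, 2 labelled non-released and 3 labelled asynchronous, chosen by their labels alone; the other 10 hold cells given Nutlin or released into S phase. Non-released cells are called blocked here. They had 2 mM thymidine for 16 h, medium alone for 8 h and thymidine again for 16 h, and DMSO was added 4 h before the time of release while the block was kept. Asynchronous cells shared the line and the medium with 10% fetal calf serum, and their time with DMSO is not stated. Whether replicates were separate cultures is not stated either, and p-values then reflect only how far these libraries differ among themselves. No measure of DNA content was used here, so the states are those of the labels.

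Excess thymidine is converted to dTTP, which shuts off the reduction of cytidine nucleotides by ribonucleotide reductase, so that dCTP runs short and replication forks stall. Cells accumulate at the border of G1 and S phase and in early S phase, where E2F factors drive transcription of cyclin E and of the replication machinery. Most histone genes are transcribed and their mRNAs kept stable only while DNA is made. Genes of mitosis are repressed by the DREAM complex in G1 and are expressed most from G2 on.

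Reads assigned to genes came to 16.98, 17.91 and 15.64 M reads (M, mega) in the asynchronous libraries and 18.94 and 23.38 M reads in the blocked libraries. The library labelled asynchronous replicate 3 stood apart: 19 of 26 epithelial markers and 17 of 19 luminal breast markers were highest there among all 15 libraries, against 1 of 24 bone and mesenchymal markers and 0 of 20 blood cell markers. KRT19, a keratin of simple epithelia, had 12.4, 3.7 and 7826 normalised reads in the asynchronous and 8.7 and 8.3 in the blocked libraries, and the oestrogen receptor gene ESR1 had 2.1, 2.8 and 1434 against 17.4 and 9.0. Normalised reads are the reads of a gene divided by the library's size factor, recovered from the deposited values, and are not divided by gene length. The same library kept the mesenchymal gene VIM, at 42329.5, 36935 and 27808 against 32072 and 31677 normalised reads, and the bone regulator RUNX2, at 116, 188 and 220.2 against 271 and 167, whereas the osteoblast gene SP7 was at or under 0.8 in all 5. Summed epithelial markers came to 32208, 22230 and 51665 normalised reads in the asynchronous and 21262 and 22367 in the blocked libraries. The leucocyte gene PTPRC had 2.1, 4.6 and 7.1 against 11.8 and 8.3, and 19 of the 20 blood markers stayed under 25 in all 5 libraries.

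Results therefore come from 2 fits, with and without asynchronous replicate 3. These were a fit of all 15 libraries (n = 2 blocked and 3 asynchronous) and a fit of 14 (n = 2 and 2), each with 1 mean per group. A difference or list median of the DMSO comparison printed without its fit is that of the 14 libraries. Differences are blocked minus asynchronous on the deposited log2 scale, ± the standard error. This scale is compressed for genes with few reads, so that folds of normalised reads are larger there. Of 14298 genes tested with all libraries, 2423 were higher and 2431 lower in blocked cells at an adjusted p under 0.05, together 33.9%. Without asynchronous replicate 3, 2662 were higher and 2670 lower of 14257, together 37.4%. The verbs rose and fell are kept for genes that passed in both fits in the same direction: 2149 rose (15.1%) and 2225 fell (15.6%), 4374 in all or 30.7% of 14257. A further 480 genes passed only with all libraries and 958 only without asynchronous replicate 3. The median difference over all genes was -0.01 and 0.01. In 57.7% of genes the 5 libraries of both groups did not overlap, so that a lack of overlap alone marks little. Among the 4374 genes that rose or fell it held for 4361, so that it adds little to a call. Where it is given for named genes below, it only describes their values. Of the genes that rose or fell, 259 differed by at least 1 upward and 199 by at least 1 downward.

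The 12 largest rises included RNF43 and genes of varied function. RNF43, a ubiquitin ligase that removes Wnt receptors from the cell surface, had 11.4, 13.8 and 40.6 normalised reads in the asynchronous and 246 and 228 in the blocked libraries. Its difference was 2.17 ± 0.20 (adjusted p = 1.37e-05) with all libraries and 2.40 ± 0.17 (adjusted p = 4.36e-06) without asynchronous replicate 3, and mean reads were 10.8-fold and 18.8-fold higher, with and without that library. The asynchronous library with epithelial transcripts was the highest of its group for RNF43, yet stayed well under both blocked libraries. GUCY1A2, a subunit of the soluble guanylate cyclase that nitric oxide activates, had 222, 231 and 194 against 1403 and 1352 normalised reads, a difference of 2.35 ± 0.17 without asynchronous replicate 3. PDE5A, which breaks down the cyclic GMP made by that enzyme, had 197, 136 and 129.9 against 695 and 728 and differed by 1.81 ± 0.14. Both genes of cyclic GMP turnover thus lay several-fold higher in each blocked library than in any asynchronous one. CRISPLD1, a secreted protein of the CRISP family, had 206, 229 and 188 against 1138 and 1179.9. BMF, a BH3-only protein that promotes apoptosis, had 14.5, 26.7 and 68.0 against 255 and 213 and differed by 2.15 ± 0.24. LBH, a transcriptional regulator first known from limb bud and heart, had 988, 859 and 566 against 3595 and 3812 and differed by 1.94 ± 0.12. The 12 largest rises and falls were taken only from genes whose groups did not overlap, so that their separation is no result here. Their higher group also had to average at least 2 units above the lowest deposited value, which left out genes with few reads. SLC2A12 (a glucose transporter), FAM13C, AKAP5 (an anchor of protein kinase A), MAP1A (a microtubule-associated protein), LOC100506895 and DNM3OS completed the 12 largest rises, with differences from 1.75 to 2.13. DNM3OS is transcribed antisense to DNM3, and because the strand of the reads is not given, reads of this pair cannot be told apart.

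The 12 largest falls were 8 histone genes, described below, and PTX3, TRAF1, IL24 and ESM1. PTX3, a secreted pattern recognition protein, had 794, 639.8 and 462 normalised reads in the asynchronous and 101 and 74.4 in the blocked libraries, a difference of -2.28 ± 0.24 (adjusted p = 2.43e-05) with all libraries and -2.47 ± 0.23 (adjusted p = 1.35e-05) without asynchronous replicate 3. TRAF1, an adaptor of tumour necrosis factor receptors, had 524, 429.9 and 356 against 79.7 and 61.6 and differed by -2.13 ± 0.22. IL24, a cytokine of the interleukin-10 family, had 284, 209.9 and 151 against 42.6 and 22.5 and differed by -1.93 ± 0.20. All 3 were several-fold lower in both blocked libraries than in the lowest asynchronous one. ESM1, a secreted proteoglycan, had 1654, 474 and 413 against 193 and 84.0, a wider spread in both groups, and its adjusted p of 0.0145 and 0.00723 became 0.0659 and 0.0507 without the filter on low values and 0.150 and 0.0752 without blocked replicate 2.

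**Figure D1:**
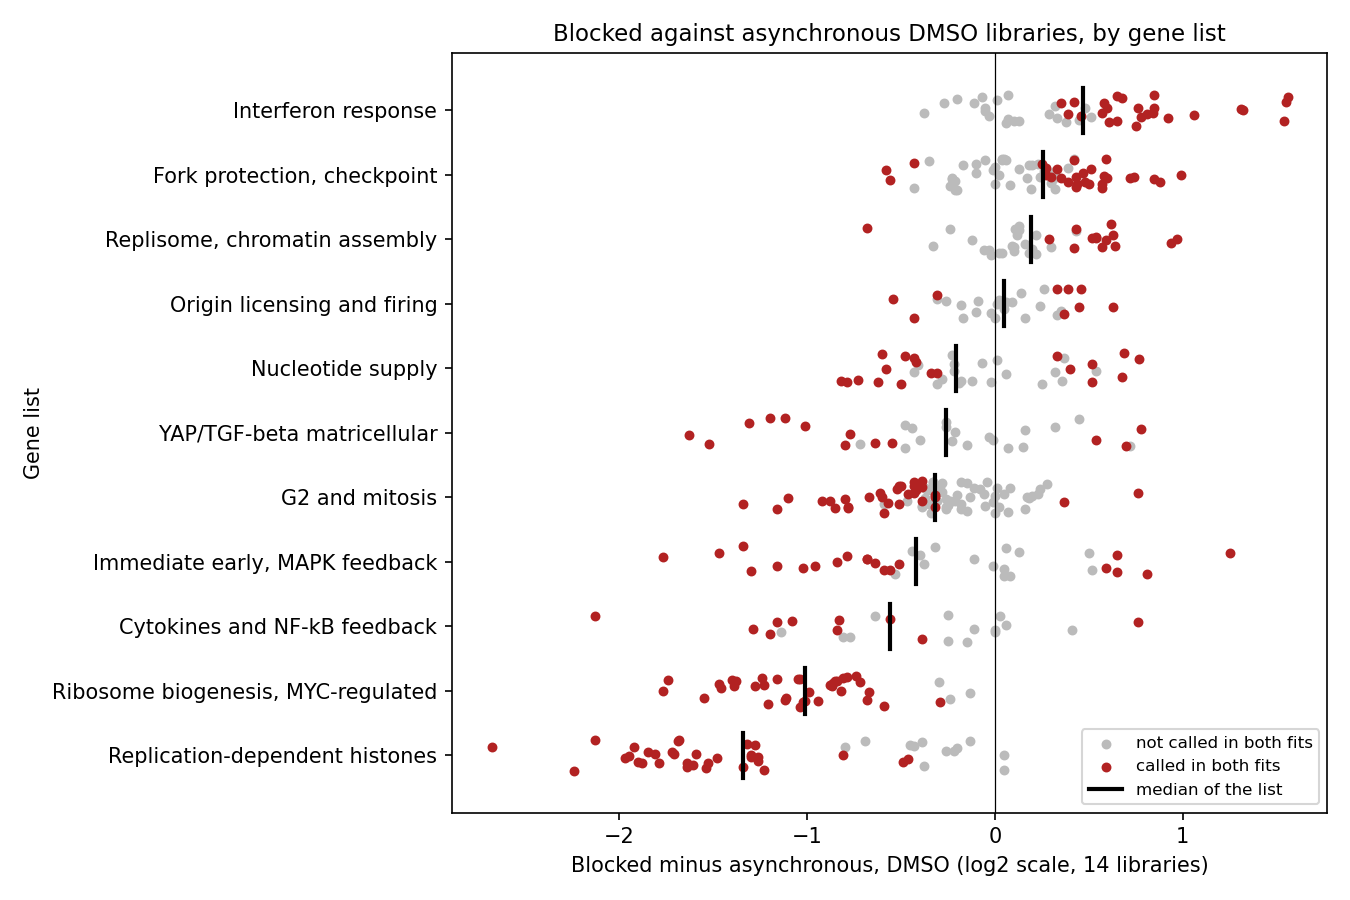
Difference between blocked and asynchronous DMSO libraries (x axis, log2 scale, fit of 14 libraries) for each tested member of 11 gene lists (y axis); red points passed in both fits, grey points did not, and black bars are list medians. Members of the histone list and of the ribosome biogenesis and MYC list lie almost wholly to the left, with medians of -1.34 and -1.01. Interferon response members lie mostly to the right with a median of 0.47.

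Cyclin E genes, E2F1 and MYB rose in blocked cells while CCND1 and CDK6 fell. Of 29 genes of G1/S control, all tested, 10 rose and 5 fell, with a list median of -0.02 without asynchronous replicate 3, against 15.1% and 15.6% of all genes. CCNE2, which activates CDK2 at entry to S phase, had 542, 412 and 384 normalised reads in the asynchronous and 1278 and 1228 in the blocked libraries, a difference of 1.40 ± 0.13 (adjusted p = 1.46e-05) with all libraries and 1.31 ± 0.14 (adjusted p = 2.32e-05) without asynchronous replicate 3. Its paralogue CCNE1 had 2109, 1884 and 1379 against 3333 and 3502 and differed by 0.76 ± 0.09. Both cyclin E genes were separate between the groups, and asynchronous replicate 3 was the lowest library for each. E2F1, a transcriptional activator of S phase genes, had 919.7, 1159 and 906 against 1438 and 1708, a difference of 0.58 ± 0.12. CCND1, the cyclin D1 that starts phosphorylation of the retinoblastoma protein, had 8190.5, 8011 and 8869 against 4654 and 4690.5 and differed by -0.79 ± 0.08. The other D-type cyclin genes, were added after their values were seen: CCND3 rose, with 1036, 1089 and 824 against 1439.9 and 1658 and 0.52 ± 0.10, and CCND2 did not pass, with -0.19 and -0.19 (adjusted p = 0.139 and 0.168; 0.0487 and 0.0466 without asynchronous replicate 1). CDK6, a kinase of D-type cyclins, had 25177, 23213 and 22072 against 14680.4 and 13159 and differed by -0.80 ± 0.12. E2F4, an E2F that mostly represses, fell as well, by 0.90 on the log2 scale. MYB, a transcription factor that also stands among the luminal breast markers, had 25.9, 29.5 and 61.9 against 92.4 and 82.1 and differed by 0.71 and 0.90 in the fits with and without asynchronous replicate 3. MYB did not pass in the 15-library fit without blocked replicate 1 (adjusted p = 0.0625). With all libraries 11 members were higher, and 6 or 7 without blocked replicate 1 or 2. In bulk RNA such as this, fewer cells in a phase and less RNA per cell cannot be told apart, for these genes and for all that follow.

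Of 8 genes for inhibitors of cyclin-dependent kinases, 7 were tested and 3 rose, against 15.1% of all genes. CDKN2C, which encodes the CDK4 and CDK6 inhibitor p18, had 356, 382 and 326 normalised reads against 826 and 926, a difference of 1.18 ± 0.11 (adjusted p = 1.46e-05) with all libraries and 1.13 ± 0.12 (adjusted p = 2.83e-05) without asynchronous replicate 3. CDKN2D, its relative p19, differed by 0.59 ± 0.14 and CDKN1C, which encodes p57, by 0.62 ± 0.15, at 32.1, 30.4 and 19.3 against 68.7 and 71.2 normalised reads. The fall of CDK6 and the rise of CDKN2C were each without overlap among the 5 libraries. So were 4361 of the 4374 genes that rose or fell. CDKN2D did not pass without blocked replicate 2 (adjusted p = 0.0508 with all other libraries and 0.0641 without asynchronous replicate 3 too). CDKN1A is given below with the p53 targets.

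Part of the replication machinery rose, by modest amounts. Of 36 replisome and chromatin assembly genes, 13 rose and 1 (POLE3) fell, against 15.1% and 15.6% of all genes, with a list median of 0.19 without asynchronous replicate 3 and 0.24 with it. ASF1B, a chaperone that brings new histones to the fork, had 707, 699 and 557 normalised reads in the asynchronous and 1344 and 1532 in the blocked libraries, a difference of 1.08 ± 0.10 (adjusted p = 1.46e-05) with all libraries and 0.97 ± 0.09 (adjusted p = 1.28e-05) without asynchronous replicate 3. PCNA, the sliding clamp of the DNA polymerases, had 4419.6, 4366 and 3702 against 6734 and 6867 and differed by 0.62 ± 0.11. LIG1, the ligase that joins Okazaki fragments, had 1359, 1417 and 1344 against 1902 and 2197 and differed by 0.54 ± 0.10. None of the 3 overlapped between the groups, and neither did 4361 of the 4374 genes that rose or fell. POLA2 (a polymerase alpha subunit), DNA2 (a nuclease and helicase) and RNASEH2A (a subunit of RNase H2) differed by 0.57, 0.59 and 0.52. Of 29 origin genes 6 rose and 3 fell, with a list median of 0.05, counts near those 15.1% and 15.6%. CDC6, a loader of the MCM helicase, had 3428, 3349 and 2790.0 against 4477 and 4341 normalised reads and differed by 0.37 ± 0.10. GINS4 and CDC45, parts of the active helicase, differed by 0.63 and 0.45 and ORC1, of the origin recognition complex, by 0.39. DBF4, the activator of the CDC7 kinase that fires origins, fell, with 2819, 2476 and 2182 against 1861 and 1747 normalised reads and a difference of -0.54 ± 0.13. MCMBP, which binds the MCM subunits, fell by 0.43 on the log2 scale. Several of these calls depended on single libraries. In the 15-library fit MCMBP did not pass without asynchronous replicate 1 or 2 (adjusted p = 0.0945 and 0.0897), nor DBF4 without asynchronous replicate 1 (0.0657). Leaving out either blocked replicate leaves 1 blocked library, and neither gene passed then. Without blocked replicate 2 their differences were -0.30 and -0.40, and CDC45, with 0.41, did not pass. In the 14-library fit ORC1 did not pass without blocked replicate 2 (difference 0.37), nor CDC6 without blocked replicate 1 (0.35). The 7 higher origin genes of the 15-library fit became 4 or 3 without blocked replicate 1 or 2. MCM2, a subunit of the helicase, had 4754, 5417 and 3905 against 5274 and 5528, and its difference of 0.21 or 0.09 passed in neither fit (adjusted p = 0.238 and 0.593).

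Many genes of fork protection, recombination and the replication checkpoint rose. Of 65 listed and 64 tested, 25 rose, against 15.1% of all genes, and 3 fell (TIPIN, NBN and RAD18), with a list median of 0.25. BRCA1, which protects stalled forks and promotes recombination, had 1667, 1649 and 1811 normalised reads in the asynchronous and 2823 and 2702 in the blocked libraries. Its difference was 0.68 ± 0.09 (adjusted p = 0.000142) with all libraries and 0.72 ± 0.10 (adjusted p = 0.000134) without asynchronous replicate 3. BRIP1, a helicase that binds BRCA1, had 2372, 2278 and 2285 against 4305 and 4196 and differed by 0.85 ± 0.10. CLSPN, which carries the signal from the kinase ATR to CHK1 at stalled forks, had 2542, 2853 and 2761 against 4328 and 4768 and differed by 0.74 ± 0.11. For all 3 genes the asynchronous libraries lay close together, replicate 3 among them, and under both blocked libraries. FANCL (the ubiquitin ligase of the Fanconi anaemia core complex), RMI2 (a partner of the BLM helicase) and EXO1 (an exonuclease that resects ends) differed by 0.88, 0.99 and 0.60. In the 15-library fit 27 members were higher, and 16 or 17 without blocked replicate 1 or 2.

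RRM2 and TK1 rose while 12 other genes of nucleotide supply fell. Of 38 in the list, all tested, 7 rose and 12 fell, against 15.1% and 15.6% of all genes, with a list median of -0.20, so that the count of rises was near that of all genes. RRM2, the small subunit of ribonucleotide reductase, had 7209.8, 5827 and 5289 normalised reads in the asynchronous and 10917 and 9903 in the blocked libraries, a difference of 0.77 ± 0.13 (adjusted p = 0.000704) with all libraries and 0.68 ± 0.13 (adjusted p = 0.00149) without asynchronous replicate 3. TK1, the thymidine kinase that phosphorylates added thymidine, had 3059, 2857 and 2101 against 3913 and 3938 and differed by 0.40 ± 0.08. SHMT1, which feeds the folate cycle for thymidylate synthesis, differed by 0.77 ± 0.10. TYMS, the thymidylate synthase, had 3648, 3432 and 3598 against 4778 and 4107; the groups did not overlap, but the difference of 0.31 and 0.32 did not pass (adjusted p = 0.261 and 0.287). It passed once S-phase replicate 2, the shallowest library, was also left out of the shared spread (0.32, adjusted p = 0.0151). Among those that fell was CTPS, one of 2 genes for CTP synthase, with 6954, 6017 and 5882 against 3751 and 3529 normalised reads and a difference of -0.77 ± 0.13 (adjusted p = 0.000546) with all libraries and -0.82 ± 0.14 (adjusted p = 0.000601) without asynchronous replicate 3. The other gene, CTPS2, had 116, 91.1 and 189.8 against 195 and 198 and rose by 0.69 without asynchronous replicate 3 and 0.47 with it. The paired CTP synthase genes thus moved in opposite directions, and asynchronous replicate 3 was close to the blocked libraries for CTPS2. UPP1, which degrades uridine, had 1612, 1425 and 1017 against 985 and 945 and differed by -0.62 ± 0.10. The other genes that fell were DCTD, UMPS, DHODH, PAICS, PFAS, PPAT, ADSL, IMPDH1, SLC29A1 and MTHFD1L, of which UMPS and DHODH serve pyrimidine and PAICS, PFAS, PPAT, ADSL and IMPDH1 purine synthesis. CTPS2 and UPP1 did not pass in the 15-library fit with any 1 of the other 4 libraries left out, with an adjusted p of at least 0.112 and 0.0878. The 12 falls of the 15-library fit became 6 without asynchronous replicate 1 or replicate 2 and 5 without blocked replicate 1 or replicate 2.

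Most replication-dependent histone genes that were tested fell. Of 69 listed, 45 passed the filter on low values; 33 fell and 0 rose, against 15.6% of all genes that fell, and the list median was -1.34 without asynchronous replicate 3 and -1.06 with it. Without the filter, which adds members with few reads, the medians were -0.47 and -0.67. HIST1H2BJ, an H2B gene, had 12575, 7049.9 and 4186 normalised reads in the asynchronous and 1513 and 1336 in the blocked libraries. Its difference was -2.29 ± 0.31 (adjusted p = 0.000142) with all libraries and -2.68 ± 0.23 (adjusted p = 8.34e-06) without asynchronous replicate 3, and mean reads were 5.57-fold higher in the asynchronous libraries. HIST1H2AC, an H2A gene, had 7646, 5378 and 3094 against 1725 and 1472 and differed by -1.97 ± 0.15. HIST1H1C, a linker histone gene, had 34685, 25480.3 and 17019 against 9599 and 8819.7 and differed by -1.69 ± 0.14. In each case the asynchronous libraries spread widely, and replicate 3 was the one nearest to the blocked cells. HIST2H2BE, HIST1H2AI and HIST1H2BF differed by -1.88, -1.92 and -1.61, and HIST1H2AH, HIST1H2BM, HIST1H2BL and HIST1H2AB by -2.24, -2.13, -1.95 and -1.90. All replication-dependent histone genes together took 1.36%, 0.95% and 0.651% of reads in the asynchronous and 0.441% and 0.392% in the blocked libraries, against 2.05% to 2.56% in the DMSO libraries of cells released into S phase. Most of these mRNAs end in a stem-loop without a poly(A) tail, so that their share of reads also depends on how RNA was selected. The ribosomal precursor RN45S, which lacks a poly(A) tail too, took 1.4%, 0.14% and 0.1% in the asynchronous and 0.14% and 2.4% in the blocked libraries, and its part in the histone result was not tested. SLBP, which binds the stem-loop of histone mRNA, had 1289, 1218 and 1054 against 1222 and 1232 normalised reads and did not pass (difference 0.05 and -0.03, adjusted p = 0.802 and 0.889). Histone genes within a class are near copies, so that values of single genes are uncertain where reads could be split among them. Without blocked replicate 2 the 33 histone genes that were lower with all libraries became 20.

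The start of HIST1H2BJ is shown for its TATA box. The sequence is RefSeq's, build GRCh38.p14, chr6:27132796-27132935, minus strand, the 140 bases before the annotated start read 5′ to 3′ in the direction of the gene, with the match to TATAAA in capitals.
HIST1H2BJ: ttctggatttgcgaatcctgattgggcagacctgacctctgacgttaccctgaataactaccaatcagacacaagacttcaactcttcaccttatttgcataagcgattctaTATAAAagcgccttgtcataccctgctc
Of 37 tested histone genes with a window of 250 bases before to 50 after the start, 27 (73%) held TATAAA on either strand, against 12% of all 27305 windows of that length. Among the members that fell, 21 of 28 held it. These counts take matches anywhere in the window, and some lie far from the start. HIST1H2BM, for one, had a match only at -219, on the opposite strand.

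Genes of G2 and mitosis fell in part. Of 84 listed and 83 tested, 29 fell and 2 (the kinetochore genes SPC24 and SPC25) rose, against 15.6% and 15.1% of all genes, with a list median of -0.32 without asynchronous replicate 3 and -0.24 with it. CDC20, the activator of the anaphase-promoting complex, had 4902, 5474 and 4417 normalised reads in the asynchronous and 1953 and 2077 in the blocked libraries, a difference of -1.26 ± 0.13 (adjusted p = 1.82e-05) with all libraries and -1.34 ± 0.13 (adjusted p = 1.61e-05) without asynchronous replicate 3. PLK1, the mitotic polo-like kinase, had 1306, 1249 and 1014 against 519 and 559.5 and differed by -1.16 ± 0.14. CCNB1, the cyclin that starts mitosis, had 8938, 8436 and 6758 against 5303 and 4763 and differed by -0.78 ± 0.15. The blocked libraries lay under every asynchronous library for all 3, by more for CDC20 and PLK1 than for CCNB1. CDCA8 (borealin, of the chromosomal passenger complex), PSRC1 (a microtubule-binding protein) and ARHGAP11A differed by -0.80, -0.85 and -0.78. CCNA2, the cyclin of S phase and G2, had 5053, 4571 and 3764 against 3819.9 and 3574; the groups overlapped and its difference of -0.26 and -0.37 did not pass (adjusted p = 0.251 and 0.0922). It passed once S-phase replicate 2 was also left out (-0.37, adjusted p = 0.00701). SPC24 had 408, 428 and 349 against 712 and 781 and differed by 0.76 ± 0.12. CCNB1 did not pass in the 15-library fit without blocked replicate 2 (adjusted p = 0.0668). The count rests on few libraries: the 32 lower members of the 15-library fit became 14 without blocked replicate 2, 19 without blocked replicate 1 and 19 without asynchronous replicate 2.

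The starts of CDC20 and PLK1 are shown because both carry the cell cycle homology region (CHR, searched as TTTGAA) and CCAAT boxes known from mitotic promoters. They are from RefSeq, GRCh38.p14, CDC20 at chr1:43358841-43358980, plus strand and PLK1 at chr16:23678749-23678888, plus strand, the 140 bases before the annotated start, with matches to either motif in capitals.
CDC20: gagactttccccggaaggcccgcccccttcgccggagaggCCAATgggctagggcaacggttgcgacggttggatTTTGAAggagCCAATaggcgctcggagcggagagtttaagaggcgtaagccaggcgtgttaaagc
PLK1: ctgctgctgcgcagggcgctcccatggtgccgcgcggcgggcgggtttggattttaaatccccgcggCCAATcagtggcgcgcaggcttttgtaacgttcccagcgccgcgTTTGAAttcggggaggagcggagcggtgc
Of 70 tested members with a window of 300 bases, 47 (67.1%) held TTTGAA on either strand, against 15.4% of all windows, and 51 (72.9%) held CCAAT, against 35.7%. Of the members that fell or rose, 17 of 26 held TTTGAA and 21 of 26 CCAAT.

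For part of the p53 target genes, CDKN1A, MDM2 and GDF15 among them, the call depended on asynchronous replicate 3. CDKN1A, which encodes the kinase inhibitor p21, had 2773, 2741 and 17534 normalised reads in the asynchronous and 5506 and 5870.4 in the blocked libraries. With all libraries its difference was 0.15 ± 0.55 (adjusted p = 0.862), and without asynchronous replicate 3 it was 1.03 ± 0.13 (adjusted p = 8.62e-05). Both blocked libraries held about 2.06 times the mean reads of asynchronous replicates 1 and 2, and less than replicate 3. MDM2, the ubiquitin ligase that degrades p53, had 5507, 5746 and 27816 against 8745 and 8555, with differences of -0.15 (adjusted p = 0.839) and 0.62 (adjusted p = 0.00118). GDF15, a stress cytokine, had 94.1, 81.0 and 3421 against 236 and 304, with -0.33 (adjusted p = 0.818) and 1.21 (adjusted p = 0.00028). Asynchronous replicate 3 lay above both blocked libraries for each of the 3 genes. That library was set apart for its epithelial and breast transcripts, but these 3 p53 targets were also highest there among the 5 libraries. Leaving it out moves their differences upward, so the p-values of p53 targets without it are no independent test.

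Of 24 tested targets in arrest and feedback, 6 passed upward in both fits and 1 downward, against 15.1% and 15.6% of all genes, and 12 were higher without asynchronous replicate 3, against 18.7%. Of 15 in cell death, 4 rose and 3 fell in both fits, and of 27 in DNA repair, metabolism and autophagy, 7 rose and 1 fell, with 13 higher without that library. The arrest list had a median of 0.48 without and 0.20 with it, and the repair list 0.34 and 0.18. The calls of some targets did not depend on that library. TRIM22, a p53 and interferon target, had 474, 457 and 392 normalised reads against 872 and 976 and differed by 0.98 ± 0.11 (adjusted p = 2.62e-05) with all libraries and 0.91 ± 0.11 (adjusted p = 4.7e-05) without asynchronous replicate 3. SESN3, a sestrin that restrains mTORC1, had 141, 103 and 88.3 against 402 and 378 and differed by 1.46 and 1.36 in the fits with and without it. DDB2, which recognises ultraviolet damage, had 1009, 1030.2 and 1467 against 2197 and 2299 and differed by 0.93 and 1.10, and APAF1, the scaffold of the apoptosome, had 471, 487 and 737 against 964 and 945 and differed by 0.73 and 0.92. All 4 passed in both fits. BTG2, an antiproliferative target, had 606, 637 and 1477 against 1534 and 1571, where asynchronous replicate 3 lay just under the blocked libraries, and SESN1 had 414, 448 and 1038 against 1029 and 1025, where it lay above them. Both passed in both fits, with 0.85 and 1.25 for BTG2 and 0.76 and 1.15 for SESN1. GADD45A, a stress protein of DNA repair, fell, with 1529, 1385 and 1322 against 814 and 897 and -0.69 and -0.73, as did the nuclease AEN and the survival gene BCL2L1, by 0.54 and 0.56 on the log2 scale without that library. BTG2 and SESN1 did not pass in the 15-library fit with any 1 of the other 4 libraries left out (lowest adjusted p = 0.086 and 0.127), and without blocked replicate 2 neither did AEN (0.0597) or BCL2L1 (0.115). In the 15-library fit, leaving out any 1 of the other 4 libraries lowered the count of higher arrest targets from 6 to 3, and that of repair targets from 7 to 4, or to 3 without blocked replicate 2.

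**Figure D2:**
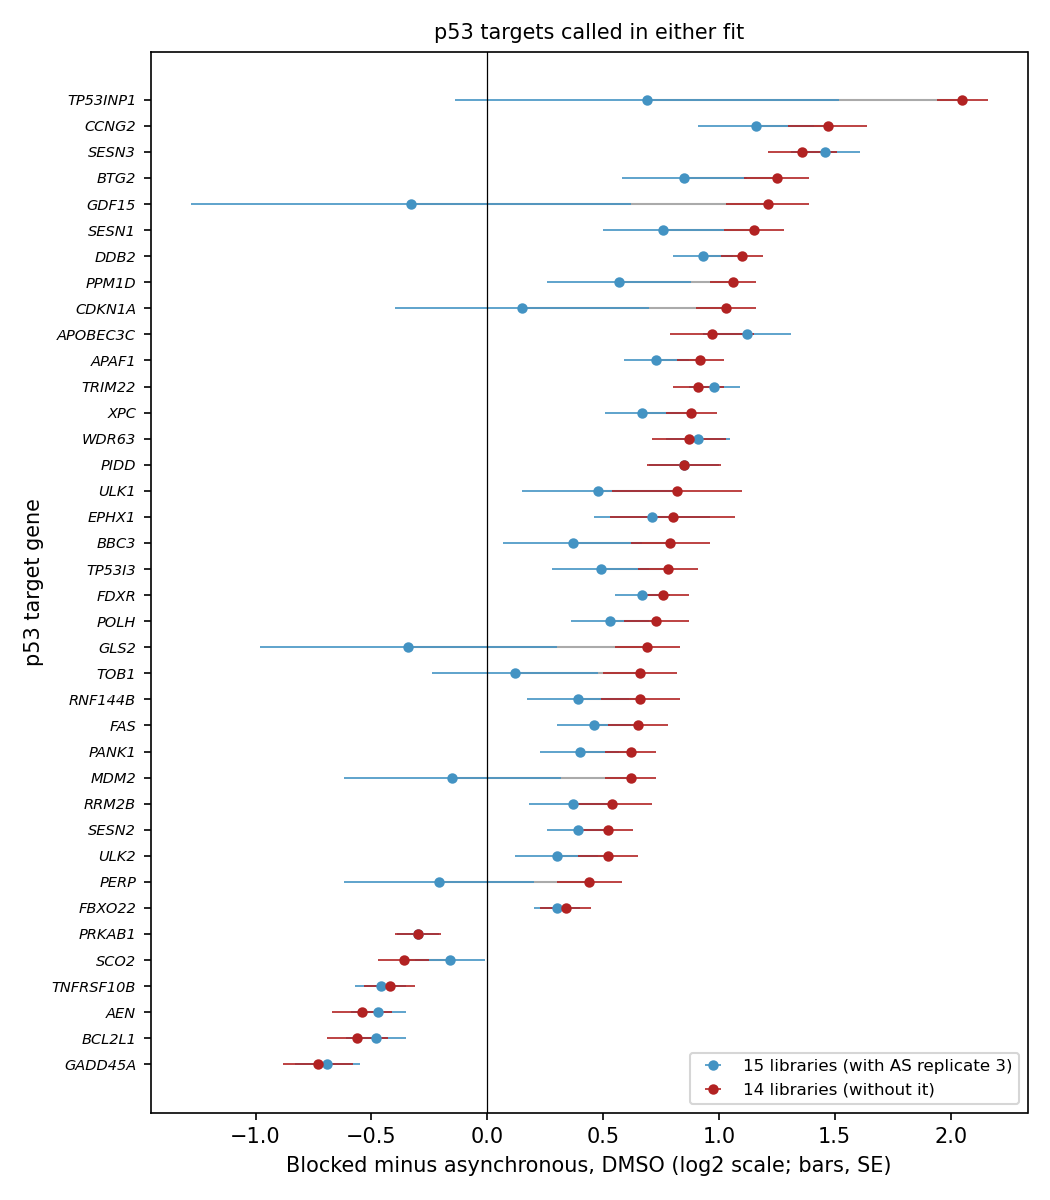
Difference between blocked and asynchronous DMSO libraries (x axis, log2 scale; bars are the standard error) for the 38 p53 targets that passed in at least 1 fit (y axis), with all 15 libraries in blue and without asynchronous replicate 3 in red. CDKN1A, MDM2 and GDF15 lie near or under 0 in blue and at 1.03, 0.62 and 1.21 in red, while TRIM22 and SESN3 stay almost in place.

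MYC and the genes listed for ribosome biogenesis or regulation by MYC fell almost without exception. The list counts MYC itself and is not confined to ribosome biogenesis, since it also holds LDHA and CDK4. Of 39 genes, all tested, 36 fell and 0 rose, against 15.6% of all genes that fell; the list median was -1.01 without asynchronous replicate 3 and -0.92 with it, and from 34 to 37 were lower in every alternative fit. MYC, a transcription factor that drives growth genes, had 4396, 3767 and 3164 normalised reads in the asynchronous and 1166 and 1141 in the blocked libraries. Its difference was -1.65 ± 0.14 (adjusted p = 6.91e-06) with all libraries and -1.77 ± 0.13 (adjusted p = 4.36e-06) without asynchronous replicate 3. RRS1, an assembly factor of the large ribosomal subunit, had 1797, 1605 and 1523 against 523 and 419 and differed by -1.74 ± 0.14. NOLC1, a chaperone of small nucleolar ribonucleoproteins, had 3413, 3407 and 3467 against 1668 and 1656 and differed by -1.01 ± 0.08. The asynchronous libraries lay close together for NOLC1, and for all 3 genes each blocked library held under 50% of the lowest asynchronous level. RRP12, NOP16 and BYSL, which serve processing and export of pre-ribosomes, differed by -1.47, -1.38 and -1.11. The 3 members that did not pass in both were UBTF, LDHA and CDK4, named because they are the remainder, with differences of -0.13, -0.24 and -0.30 without asynchronous replicate 3. UTP20, a small subunit processing factor chosen for its promoter after its values were seen, had 3240.2, 3306 and 3269 against 1566 and 1386 and differed by -1.12 ± 0.10.

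UTP20 is shown for the E-box CACGTG, the site MYC binds with MAX, in the 140 bases before its annotated start (RefSeq, GRCh38.p14, chr12:101279965-101280104, plus strand), in capitals.
UTP20: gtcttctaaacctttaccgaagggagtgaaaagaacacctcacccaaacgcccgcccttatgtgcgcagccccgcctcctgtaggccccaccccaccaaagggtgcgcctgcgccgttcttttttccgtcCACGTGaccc
The share of the list with an E-box is not given, because windows were at hand for under 80% of its tested members. E-boxes were found in members that fell and also in LDHA and CDK4, which did not pass in both fits. Whether the site has a part in the fall of UTP20 was not tested.

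The structural proteins of the ribosome followed only weakly. Of 75 cytosolic ribosomal protein genes, 71 were tested; all 71 lay below 0 without asynchronous replicate 3, with a list median of -0.27, but 8 fell in both fits, against 15.6% of all genes. RPL9, of the large subunit, had 449, 409 and 318 normalised reads against 223 and 208 and differed by -0.72 ± 0.13 (adjusted p = 0.000807) with all libraries and -0.84 ± 0.11 (adjusted p = 0.000101) without asynchronous replicate 3. RPL27A and RPL17 differed by -0.58 and -0.62 without asynchronous replicate 3. Neither passed in the 15-library fit without blocked replicate 1 (adjusted p = 0.0515 and 0.0649) or blocked replicate 2 (0.164 and 0.068). The count of lower members was 9 with all libraries, 22 without asynchronous replicate 3, and 1 of the 15-library fit without blocked replicate 2. These genes have many processed pseudogene copies, so that their values are uncertain where reads could be split.

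Many interferon response genes rose. Of 66 listed, 47 passed the filter; 25 rose and 0 fell, against 15.1% of all genes that rose, with a list median of 0.47 without asynchronous replicate 3 and 0.43 with it. SAMD9, an antiviral restriction factor, had 532, 318 and 291 normalised reads in the asynchronous and 1390.1 and 1267 in the blocked libraries, a difference of 1.71 ± 0.17 (adjusted p = 2.07e-05) with all libraries and 1.56 ± 0.17 (adjusted p = 2.83e-05) without asynchronous replicate 3. SAMD9L, its neighbour and paralogue, had 72.4, 52.5 and 40.6 against 294 and 251 and differed by 1.54 ± 0.15. PARP9, a partner of the ubiquitin ligase DTX3L in interferon signalling, had 185, 213 and 290.3 against 685 and 687 and differed by 1.55 ± 0.12. In all 3, both blocked libraries lay more than 2 times above the highest asynchronous library. DTX3L itself had 1028, 1034 and 1100.2 against 1927 and 1875 and differed by 0.85 ± 0.09, and PARP14, of the same family as PARP9, had 1283, 1246 and 1328 against 2719 and 2676 and differed by 1.06 ± 0.08. IFI44 had 44.5, 23.9 and 30.4 against 140.5 and 156 and differed by 1.32 ± 0.14. IFIT1, which binds foreign capped RNA and was chosen for its promoter after its values were seen, had 20.7, 35.9 and 40.6 against 139 and 124 and differed by 1.31 ± 0.23 (adjusted p = 0.000817). Many members had few reads: the list median was 0.30 and 0.26 without and with asynchronous replicate 3 when no filter was set. With a stricter filter on low values the higher members were 17 with all libraries and 16 without asynchronous replicate 3, and without blocked replicate 2 the 28 higher members of the 15-library fit became 15. Summed over 20 genes, markers of blood cells came to 146, 101.3 and 85.2 normalised reads in the asynchronous and 120.0 and 103.8 in the blocked libraries.

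The starts of IFIT1 and SAMD9 are shown for the interferon-stimulated response element (ISRE, searched on both strands as GAAA, any 2 bases and GAAA again) that binds the interferon factor ISGF3. They are from RefSeq, GRCh38.p14, IFIT1 at chr10:89392483-89392622, plus strand and SAMD9 at chr7:93117980-93118119, minus strand, the 140 bases before the annotated start, with matches in capitals.
IFIT1: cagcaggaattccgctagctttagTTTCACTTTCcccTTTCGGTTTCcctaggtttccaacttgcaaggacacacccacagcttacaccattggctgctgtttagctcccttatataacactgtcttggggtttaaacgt
SAMD9: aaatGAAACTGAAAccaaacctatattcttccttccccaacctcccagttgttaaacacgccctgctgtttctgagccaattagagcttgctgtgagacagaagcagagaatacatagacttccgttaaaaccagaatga
Of 40 tested members with a window of 300 bases, 25 (62.5%) held the motif, against 3.65% of all windows, and of the members that rose 15 of 22 (68.2%).

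**Figure D3:**
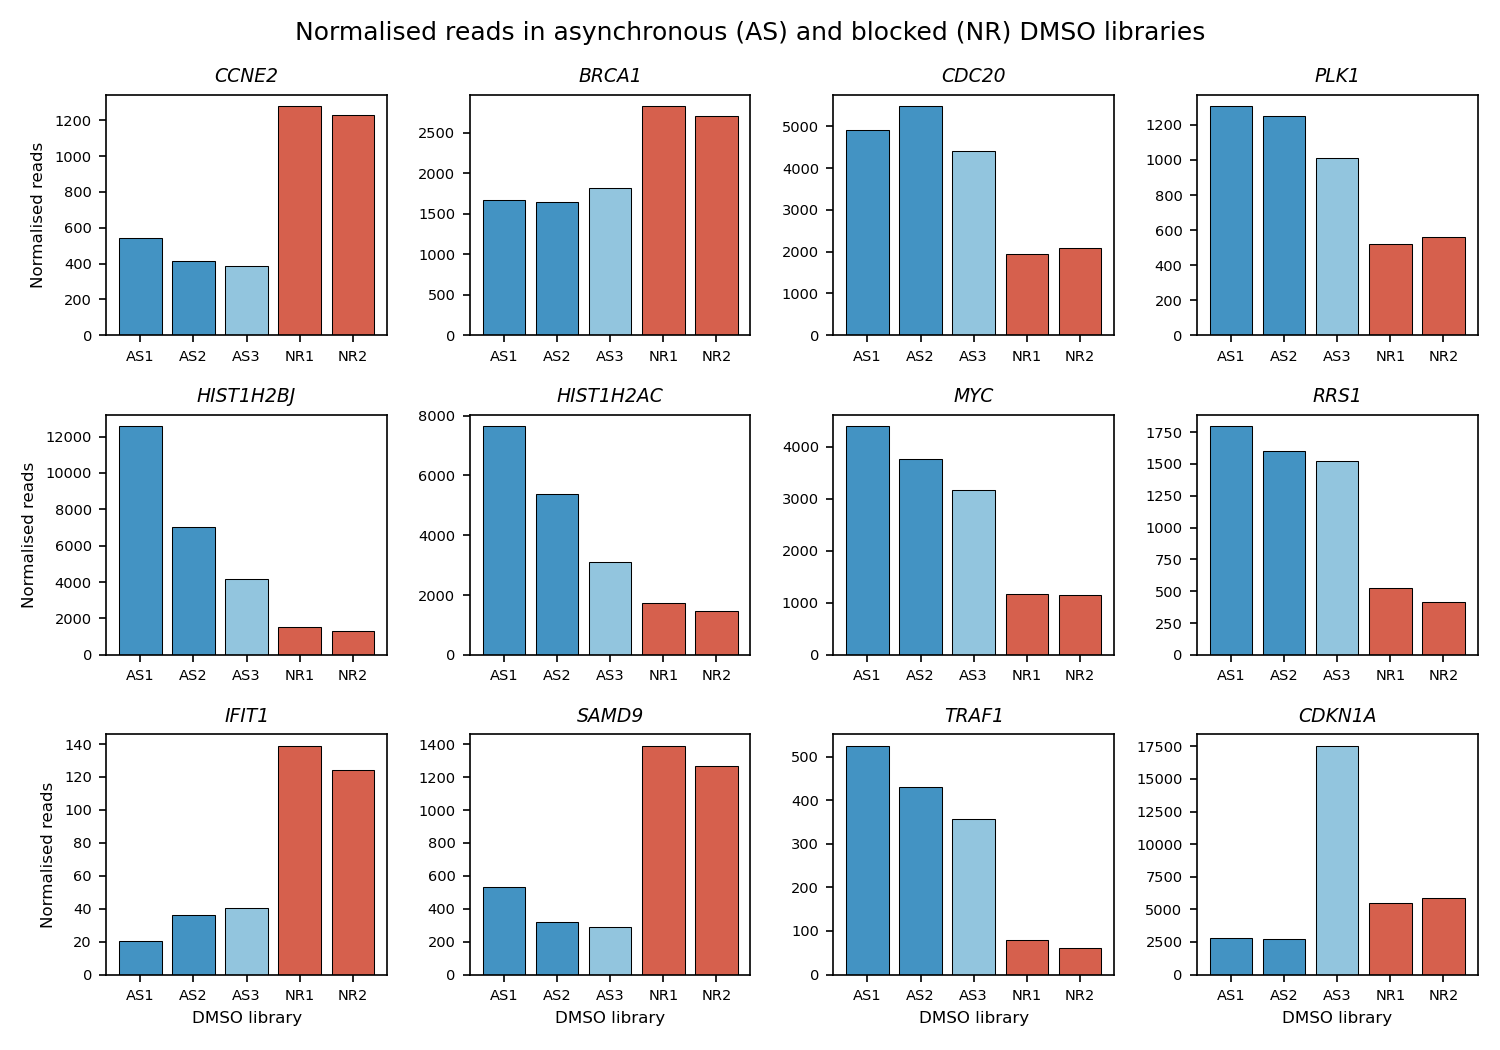
Normalised reads (y axis, linear from 0) of 12 genes in the 3 asynchronous (AS, blue; replicate 3 pale) and 2 blocked (NR, red) DMSO libraries. CCNE2, BRCA1, IFIT1 and SAMD9 are higher and CDC20, PLK1, HIST1H2BJ, HIST1H2AC, MYC, RRS1 and TRAF1 lower in both blocked libraries than in every asynchronous one, and CDKN1A is highest in asynchronous replicate 3 at 17534.

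Several NF-kB feedback genes fell. Of 32 cytokine and NF-kB genes, 23 were tested; 9 fell and 1 rose, against 15.6% and 15.1% of all genes, with a list median of -0.56. TNFAIP3, the A20 protein that ends NF-kB signalling, had 533, 409.7 and 395 normalised reads in the asynchronous and 185 and 164 in the blocked libraries, a difference of -1.12 ± 0.13 (adjusted p = 5.65e-05) with all libraries and -1.20 ± 0.14 (adjusted p = 5.16e-05) without asynchronous replicate 3. BIRC3, an inhibitor of apoptosis at the tumour necrosis factor receptor, had 1189.7, 888 and 782 against 373 and 404 and differed by -1.29 ± 0.20. NFKB1, which encodes the p105 precursor, and NFKBIE, an inhibitor of NF-kB, differed by -0.84 and -1.16. All of these were lower in each blocked library than in every asynchronous one. Without asynchronous replicate 3, 11 members were lower, and 7 when asynchronous replicate 1 or blocked replicate 1 was left out too. PTGS2, the inducible cyclooxygenase, was the member that rose, at 15.5, 12.9 and 16.2 against 50.5 and 46.2 and a difference of 0.76 ± 0.10.

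Part of the immediate early and MAPK feedback genes fell. Of 40 listed and 35 tested, 15 fell and 5 (FOS, EGR2, ATF3, DUSP10 and BTG2) rose, with a list median of -0.42; over all genes 15.6% fell and 15.1% rose, so that the count of rises was near that of all genes. MAFF, a small MAF factor, had 693, 554 and 449.6 normalised reads against 205 and 174 and differed by -1.33 ± 0.20 (adjusted p = 0.000269) with all libraries and -1.47 ± 0.20 (adjusted p = 0.000135) without asynchronous replicate 3. MCL1, a short-lived survival protein, had 10136, 8751 and 9943 against 5506 and 5306 and differed by -0.79 ± 0.10. JUN and ETV4, transcription factors downstream of MAP kinases, differed by -0.59 and -0.84. FOS and JUN, which pair in the AP-1 factor, thus passed in opposite directions, although JUN did not pass in the 15-library fit without blocked replicate 1 (adjusted p = 0.0825).

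Of 31 genes responsive to YAP and TGF-beta, all tested, 10 fell and 3 rose, against 15.6% and 15.1% of all genes, with a list median of -0.26. TAGLN, an actin-binding protein, had 5934, 3981 and 2762 normalised reads in the asynchronous and 1451 and 1621 in the blocked libraries, a difference of -1.36 ± 0.21 (adjusted p = 0.000361) with all libraries and -1.63 ± 0.15 (adjusted p = 1.26e-05) without asynchronous replicate 3. THBS1, a matrix glycoprotein that activates TGF-beta, had 43368, 42979 and 38994 against 19746 and 17944 and differed by -1.20 ± 0.15. EDN1, the vasoconstrictor endothelin 1, had 1659, 1130.5 and 905 against 451 and 432 and differed by -1.52 ± 0.20. The blocked libraries held less of each than any asynchronous library, and THBS1 varied least among the asynchronous ones. AMOTL2, a target and inhibitor of YAP, and the receptor kinase AXL differed by -0.64 and -0.77, and LTBP1, which stores latent TGF-beta, rose by 0.78.

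Some matrix and adhesion genes rose and others fell. Of 46 tested collagen, matrix and protease genes 7 rose and 6 fell, close to the 15.1% and 15.6% of all genes, with a list median of 0.00. Of 28 tested integrin and adhesion genes 8 rose and 9 fell, larger shares than the 15.1% and 15.6% of all genes, with a list median of 0.02. LAMB3, a laminin chain of basement membranes, had 7282, 6683 and 5242 normalised reads against 2490.5 and 2571 and differed by -1.31 ± 0.14 (adjusted p = 2.51e-05) with all libraries and -1.44 ± 0.12 (adjusted p = 8.11e-06) without asynchronous replicate 3. MMP14, a membrane protease that cleaves collagen, rose, with 1339, 1143 and 887 against 2471 and 2522 and 0.98 ± 0.14, whereas the stromelysin MMP3 fell by 1.05 on the log2 scale, and did not pass in the 15-library fit without blocked replicate 2 (adjusted p = 0.0799). ITGB8, an integrin subunit that releases TGF-beta, had 849, 1139.7 and 1095 against 2360.3 and 2392 and differed by 1.22 ± 0.14, and ITGA5, of the fibronectin receptor, fell, with 2485, 2391 and 1963 against 1476 and 1594 and -0.65 ± 0.11. Without blocked replicate 2 the 15-library fit had 5 matrix genes higher and 2 lower in place of 9 and 7, and 5 adhesion genes lower in place of 9. COL11A1 and the protocadherin PCDH18 rose by 0.96 and 1.11.

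In the metabolic and stress lists single members rose or fell, and most counts lay near or under the 15.1% of all genes that rose and 15.6% that fell. Of 33 tested glycolysis and hypoxia genes 3 rose and 8 fell, with a list median of -0.11. HK2, the hexokinase that starts glycolysis, had 1302, 1443 and 1928 normalised reads in the asynchronous and 550.2 and 527 in the blocked libraries, a difference of -1.42 ± 0.15 (adjusted p = 2.62e-05) with all libraries and -1.26 ± 0.13 (adjusted p = 2.37e-05) without asynchronous replicate 3. Of 43 oxidative phosphorylation genes 1 (SDHA, of complex II) rose and 1 (CYCS, cytochrome c) fell, with 0.47 and -0.77. Among 37 ATF4 and stress genes 6 rose and 9 fell; SLC7A5, the carrier of large neutral amino acids, had 12131, 12159 and 10962 against 5730.2 and 6048 and differed by -1.04 ± 0.16, and its partner chain SLC3A2 differed by -0.77 ± 0.11. Of 31 tested sterol genes 1 rose and 3 fell. Of 43 tested lysosome and autophagy genes 8 rose and 2 fell. GABARAPL1, which joins autophagosome membranes, had 490.4, 313 and 288 against 1075 and 1219 and differed by 1.55 ± 0.18 (adjusted p = 4.74e-05) with all libraries and 1.42 ± 0.18 (adjusted p = 9.11e-05) without asynchronous replicate 3, the largest difference among the members of that list named here. SDHA did not pass in the 15-library fit without asynchronous replicate 1 or 2 (adjusted p = 0.08 and 0.064). With 1 blocked library left it did not pass either, at 0.45 without blocked replicate 1 and 0.30 without blocked replicate 2. CYCS did not pass without blocked replicate 2 (difference -0.60). Without blocked replicate 2 the 9 lower stress genes of the 15-library fit became 4 and the 9 higher lysosome and autophagy genes 4, and without blocked replicate 1 the 9 lower glycolysis genes became 5.

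The same states were also compared between the Nutlin libraries, 2 blocked and 3 asynchronous. These enter no mean of the DMSO comparison, but they share in the estimate of spread behind its p-values. Nutlin blocks the binding of MDM2 to p53 and was given at a dose whose unit is damaged in the labels. Of 14257 genes, 2939 were higher (20.6%) and 2747 lower (19.3%) in blocked cells with Nutlin, together 39.9%. Of the 4374 genes that rose or fell with DMSO, 4361 (99.7%) had the same direction with Nutlin, and 3899 passed there too, 89.1% of the DMSO genes and 68.6% of the 5686 that passed with Nutlin. The test of the difference between the comparisons with limma passed for 0 genes in either fit; at an unadjusted p under 0.05 there were 261 of 14257 (1.83%) without and 155 (1.08%) with asynchronous replicate 3. Both shares are smaller than the threshold of 0.05 itself, so the test may be too strict here. That 0 genes passed therefore does not show that the DMSO and Nutlin comparisons are alike. Among the named genes the smallest adjusted p of that difference was 0.343 without asynchronous replicate 3.

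Members of the ribosome biogenesis and MYC list had a median of -0.97 with Nutlin, where 37 of 39 were lower. Interferon members had a median of 0.49, where 28 were higher. Histone members had a median of -0.91, with 32 lower and 1 (HIST1H3E, chosen after its value was seen, 0.35) higher. G2 and mitosis members had a median of 0.01 with Nutlin, where 12 were lower and 10 higher, beside -0.32 with DMSO; CDC20 differed by -1.06 with Nutlin and -1.34 with DMSO, and CCNA2 by 0.03 and -0.37. p53 targets of arrest had a median of 0.22 with Nutlin. With DMSO it was 0.20 with all libraries and 0.48 without asynchronous replicate 3, so any gap rests on leaving out that library. BTG2 differed by 0.21 with Nutlin (adjusted p = 0.199). With DMSO it differed by 0.85 with all libraries and 1.25 without asynchronous replicate 3. FAS, a death receptor, differed by 0.00 with Nutlin (adjusted p = 0.998), beside 0.46 and 0.65 in those 2 DMSO fits. For none of these genes did the difference between the Nutlin and DMSO comparisons pass the test, which does not show that they are equal.

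**Figure D4:**
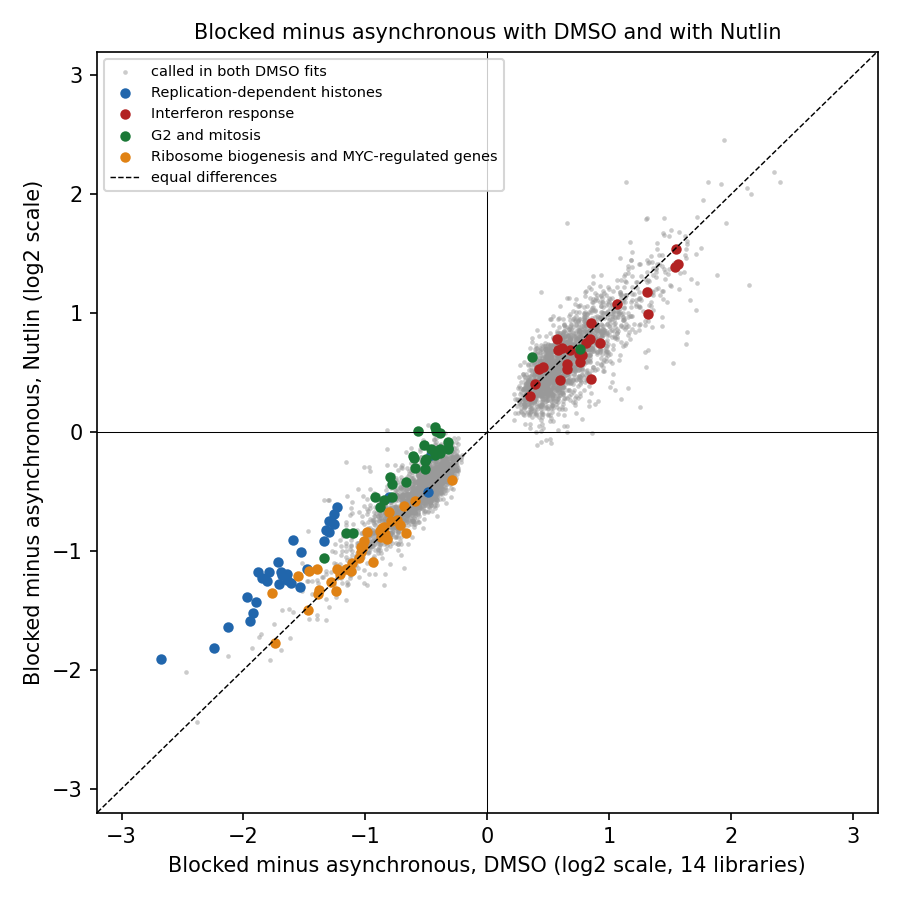
Blocked minus asynchronous differences with DMSO (x axis, 14 libraries) and with Nutlin (y axis), both on the log2 scale, for the 4374 genes that passed in both DMSO fits; coloured points are members of 4 lists and the dashed line marks equal differences. Of these genes 4361 have the same sign on both axes, and the histone and mitosis members lie mostly above the dashed line.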

How the data were processed

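The authors deposited 1 table of 23368 genes by 15 libraries, whose values are normalised read counts on a variance-stabilised log2 scale, as the values themselves show, with a lowest value of 4.86 (0 reads) shared by all libraries. Libraries were made from 1000 ng of total RNA (TruSeq) and read as 50 nt single reads, per the labels' protocols; CASAVA 1.8.2, TopHat 0.9, HTSeq, DESeq2 1.10.1 and hg19 stand in the submitters' processing notes. Annotation and strand are not given in the sources used here. Reads were recovered by inverting the transformation: 99.90% to 99.98% of values in the 5 libraries came out whole within 0.05 reads. A count of 0 allows up to 3 reads, 0.128 to 0.192 per M reads, which covers counting error only.

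Genes at least 1 unit above the lowest value in 2 or more libraries were tested with limma 3.58.1 (R 4.3.3; eBayes with a mean-variance trend; two-sided; Benjamini-Hochberg over all genes tested; adjusted p under 0.05), with 1 mean per group over 15 or 14 libraries. On simulated data, 87% (15 libraries) and 76% (14) of 2-fold changes and 18% and 16% of 1.5-fold changes were recovered, with 4 false calls of 14064 and 3 of 14053 genes. The simulation changed 100 genes at each fold, far fewer than passed in the data. It gave all genes the same variability, and asynchronous replicate 3 did not stand apart in it. These rates are therefore not those of this comparison. No replicates held identical values.

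Named genes were the 12 largest differences each way and up to 6 members of each of 24 lists by smallest adjusted p. A fixed set of cell cycle, p53 and marker genes was always given. The 12 largest came from 3938 genes that passed in both fits without overlap. In these 3938 the higher group also averaged at least 2 units above the lowest value. The members, lists and rule were chosen with earlier results of these data known. Promoters are RefSeq windows of GRCh38.p14, with no coordinates converted. Alternatives changed libraries, filter, scaling, variance model and replicate block, or used voom on the recovered reads.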

Additional observations from a re-analysis of the deposited data

How the results depend on the processing

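With all libraries 4854 genes passed. Leaving out 1 library of the comparison gave 2400 (blocked replicate 2) to 5332 (asynchronous replicate 3), with 2893 without blocked replicate 1; 6812 passed without both asynchronous replicate 3 and S-phase replicate 2, 3651 with the compared groups alone, 4267 without a filter, 3890 with a stricter one, 4763 with median centring, 5532 with voom and 4853 with a robust prior. Without asynchronous replicate 3, 5332 passed, and leaving out a further library gave 3058 (blocked replicate 2) to 4009, with 3494 without asynchronous replicate 1; these fits had 6157, 4645, 4258, 5356, 6060 and 5324 in the same order of settings. Where an arm had 1 library left, its spread was assumed to be that of the other groups. The share of higher genes among those that passed moved by under 10 percentage points in these fits. No named gene that passed in both fits changed direction in these alternatives, whereas MDM2 and GDF15 went from -0.15 and -0.33 with all libraries to 0.62 and 1.21 without asynchronous replicate 3, and CDKN1A from 0.15 to -0.29 and -0.30 without asynchronous replicate 1 or 2. The replicate numbers are taken as names only: without asynchronous replicate 3, deviations of same-numbered libraries correlated at 0.25, a single value because 2 libraries a group deviate in mirror image, and with the replicate block 4985 and 6045 genes passed. Blocked cells were represented by 2 libraries, so genes that did not pass may still differ.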
